A study of Homo sapiens with 6 samples.

Results

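The genes described here are 9 regulators and markers of neural ectoderm and neurons, a fate outside the kidney lineage that the cultures were directed toward. They are PAX6, SOX1, SOX3, OTX2, LHX2, HES5, NEUROG2, DCX and ELAVL3, picked by name, and each matched 1 row among the 60107 gene IDs of the count table. The RNA came from H9, a long-established line of human embryonic stem cells, which had been steered toward nephron progenitors and was collected on day 9. Libraries were made with a stranded mRNA kit and sequenced as single reads. Of 6 libraries, 3 came from complete medium with glutamine and 3 from cells deprived of glutamine from day 0 on. All 6 share the line, the protocol and the day of collection, and where 3 values are given for a group they stand in the order of replicates 1, 2 and 3. No day 0 library was analysed here, and nothing in the labels says whether replicates came from separate cultures, so p-values measure only the spread between these samples.

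Neural tissue arises from ectoderm that escapes bone morphogenetic protein signalling. Neural plate cells then switch on transcription factors such as PAX6, SOX1, SOX3, OTX2 and LHX2, Notch signalling keeps them dividing through effectors such as HES5, and proneural factors such as NEUROG2 commit them to become neurons. New neurons make DCX, a protein that binds microtubules in migrating neurons, and ELAVL3, an RNA-binding protein of neurons. In kidney differentiation these genes serve as a check for off-target cells, although some neural genes are also used by other embryonic tissues.

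The promoter of HES5 is shown because the gene is a direct Notch target, and that of NEUROG2 because this gene had the largest fold change among the 9. Both come from RefSeq on GRCh38.p14 and run for 250 bases up to the base before the annotated start, on the minus strand: chr1:2530264-2530513 for HES5 and chr4:112516181-112516430 for NEUROG2. In HES5 the capitals mark the letters GTGGGAA on either strand, the core bound by the Notch cofactor RBPJ. In NEUROG2 they mark each CG.
HES5: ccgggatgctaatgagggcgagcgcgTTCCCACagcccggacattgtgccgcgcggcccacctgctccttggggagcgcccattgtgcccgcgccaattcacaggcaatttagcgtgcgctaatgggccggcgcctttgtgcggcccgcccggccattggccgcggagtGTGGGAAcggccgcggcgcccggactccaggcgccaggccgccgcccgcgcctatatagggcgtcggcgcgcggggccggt
NEUROG2: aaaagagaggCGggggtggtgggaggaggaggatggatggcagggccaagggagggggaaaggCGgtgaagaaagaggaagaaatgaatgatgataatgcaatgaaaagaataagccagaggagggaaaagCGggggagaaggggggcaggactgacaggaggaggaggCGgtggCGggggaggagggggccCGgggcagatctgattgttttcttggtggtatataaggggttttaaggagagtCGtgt
Each gene was read at its most upstream annotated start only, although PAX6 had 9 annotated starts, DCX 3 and OTX2 2. The letters GTGGGAA were found 2 times before the start of HES5, at positions -224 and -81. They were in none of the windows read for the other 7 genes with an entry. They occur in 5.43% of all 35116 windows of this length, and a match is a description of letters, not a binding site. The HES5 window held 36 CG and the NEUROG2 window 7. The others held 31 in SOX1, 25 in LHX2, 22 in PAX6, 17 in SOX3, 7 in OTX2 and 2 in DCX, beside a median of 11 over all windows. ELAVL3 had no entry.

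The libraries held between 78220507 and 84746566 counts, so that 1 count is worth 0.0116 to 0.0128 CPM (counts scaled to a common library size by TMM). Replicate 1 with glutamine stands apart from its group. Over all tested genes, which do not count as replicates, its Pearson's r in log2 CPM was 0.9759 and 0.9762 with replicates 2 and 3 and 0.9908 to 0.9927 with the libraries without glutamine, and the fold changes of the 9 genes below are given with and without it. All 14 nephron progenitor markers on a list drawn up for this comparison passed the filter on low counts, and their summed level ran from 984 to 2072 CPM.

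DCX stood far above the other 8 genes in level. Per length of exon its mean over the 6 libraries was 4.52 RPKM (CPM per kilobase), at percentile 62.6 of the genes tested. PAX6 came next at 0.161 RPKM, percentile 12.2, and the level of DCX was 28.1 times that of PAX6, with no overlap between libraries. NEUROG2 (0.122), ELAVL3 (0.0995), LHX2 (0.0850), HES5 (0.0817), SOX3 (0.0781), SOX1 (0.0779) and OTX2 (0.0462 RPKM) followed. From PAX6 down, the ranges of neighbours in this order overlapped, so their order is not resolved. The 7 genes after PAX6 had means under 1 CPM over the 6 libraries. The 14 nephron progenitor markers had a median of 11.1 RPKM and none under 1 CPM over the same libraries. With glutamine alone, HOXC11, HOXD11 and HOXA11 among these markers had means of 0.082, 0.185 and 0.441 CPM. In bulk samples fewer cells of a type and less RNA per cell cannot be told apart.

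**Figure D1:**
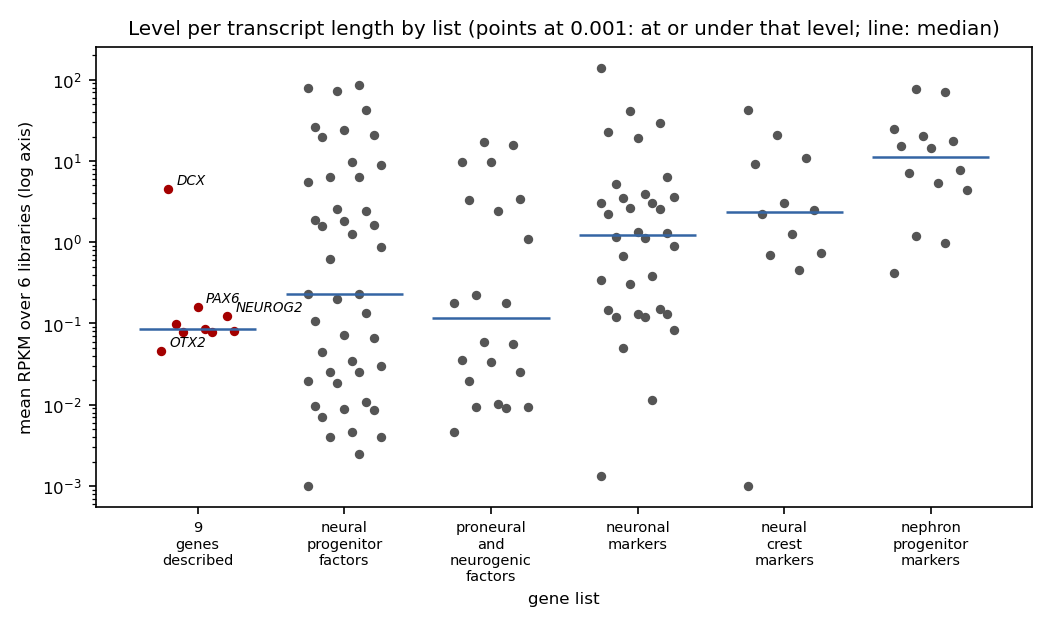
Mean RPKM over the 6 libraries on a log axis for each gene of the 9 described and of 5 lists, with the list median as a line. DCX lies at 4.52 RPKM and the other 8 genes at 0.161 RPKM or under, below the median of 11.1 RPKM of the nephron progenitor markers.

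With all 6 libraries edgeR called none of the 9 genes between the groups. One gene, SOX3, did not pass the filter on low counts, and of the 8 tested edgeR called 0 at an adjusted p under 0.05, where the background was 0.00442% of all genes. At an unadjusted p under 0.05 there were 2, PAX6 and NEUROG2, both lower without glutamine, where 29.7% of all genes passed and 15% were lower. DESeq2 called 1, NEUROG2, against 14% of all genes, and gave HES5 no adjusted p. The test of limma-voom called 0. The groups did not overlap for the same 2 genes, beside 16.9% of all genes that were lower without overlap. An exact two-sided permutation test of 3 against 3 cannot go below 0.1.

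When replicate 1 with glutamine was left out, edgeR called 4 of the 9 genes, DCX and HES5 higher and PAX6 and NEUROG2 lower without glutamine. That fit called 41.3% of all 23164 genes tested, so the share among the 9 lies near the background. All 4 kept the direction they had with 6 libraries, but the fits share every other library, so this is no separate support. Replicate 1 with glutamine was singled out in these same data for its likeness to the libraries without. The adjusted p of the fit without it, here and below, carry that choice.

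**Figure D2:**
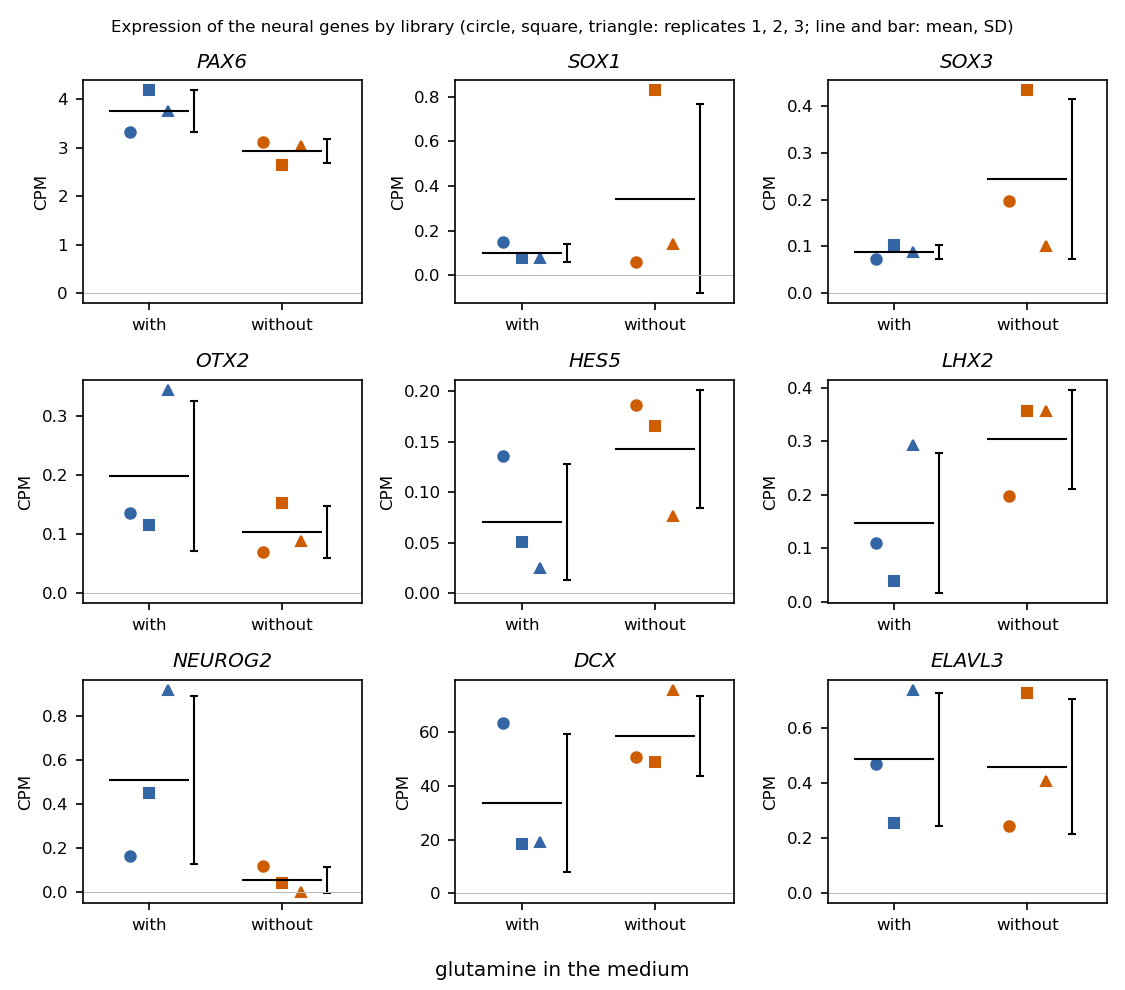
CPM of each of the 9 genes in every library, by glutamine in the medium, with the group mean as a line and the SD as a bar; marker shapes give the replicate. In DCX the circle of replicate 1 with glutamine, at 63.4 CPM, lies among the libraries without, while the other libraries with glutamine are at 18.4 and 19.2 CPM.

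Of the transcription factors of the neural plate, PAX6 had the highest counts. PAX6 lies at chr11:31784779-31818062 on the minus strand (GRCh38, GENCODE 29, as for the genes below) and encodes a paired-box factor needed for eye and forebrain. Its level was 3.33, 4.19 and 3.77 CPM with glutamine and 3.12, 2.65 and 3.04 CPM without, or 3.76 ± 0.43 against 2.94 ± 0.248 CPM (SD, n = 3). The lowest library with glutamine, replicate 1, was just above the highest without, so the groups were separate by a narrow margin. The log2 fold change was -0.35 (SE 0.15), with an adjusted p from edgeR of 0.162. Without replicate 1 with glutamine it was -0.43 (SE 0.13, adjusted p 0.0254 by edgeR).

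PAX6 shares its locus with other transcripts. The 3′ end overlaps ELP4 on the opposite strand, a gene of the Elongator complex, with 1166 to 1690 counts against 208 to 327 for PAX6. The kit keeps strand, but the strand setting of the counting is not given in the sources used here, so reads from shared exons cannot be told apart. ELP4 had a log2 fold change of -0.33 (SE 0.12, with an edgeR adjusted p of 0.135), close to that of PAX6, and -0.43 without replicate 1 with glutamine (adjusted p 0.00243 by edgeR). The union of PAX6 exons over all transcripts is 20812 bases, which lowers its RPKM.

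SOX1 and SOX3, both factors of the SOXB1 group that keep neural progenitors undifferentiated, had few counts, with 1 library the highest for both. SOX1, a single-exon gene at chr13:112067647-112070488 on the plus strand, had 12, 6 and 6 counts with glutamine and 5, 65 and 11 without. SOX3, a single-exon gene at chrX:140502985-140505116 on the minus strand, had 6, 8 and 7 counts with glutamine and 17, 34 and 8 without. For both genes the highest library was replicate 2 without glutamine, at 0.83 CPM for SOX1 and 0.434 CPM for SOX3. The SOX1 log2 fold change of 1.72 (SE 1.03, with an edgeR adjusted p of 0.292) rested on that library, since it was -0.045 without it. Leaving out replicate 1 with glutamine gave 2.11 (SE 1.13), at an adjusted p from edgeR of 0.164. SOX3 was tested when replicate 1 with glutamine was left out and had a log2 fold change of 1.33 (SE 0.63, with an edgeR adjusted p of 0.118).

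OTX2 and LHX2, homeodomain factors of forebrain and midbrain and of forebrain and eye, were likewise sparse and overlapped between groups. OTX2, at chr14:56799905-56810479 on the minus strand, had 11, 9 and 27 counts with glutamine and 6, 12 and 7 without. LHX2, at chr9:124001670-124033301 on the plus strand, had 9, 3 and 23 counts with glutamine and 17, 28 and 28 without. In both genes replicate 3 was the highest library with glutamine. Their log2 fold changes were -0.93 (SE 0.54) for OTX2 and 1.03 (SE 0.56) for LHX2, with adjusted p from edgeR of 0.277 and 0.257. Neither was called without replicate 1 with glutamine, at -1.14 (adjusted p 0.109 by edgeR) and 0.86 (adjusted p 0.256 by edgeR).

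HES5, a repressor switched on by Notch in neural progenitors, lies at chr1:2528745-2530245 on the minus strand and had 2 to 16 counts in a library. Its counts were 11, 4 and 2 with glutamine and 16, 13 and 6 without. Replicate 1 with glutamine lay within the range of the libraries without, and the other libraries of its group below it. The log2 fold change was 0.995 (SE 0.56, with an edgeR adjusted p of 0.27), and 1.87 (SE 0.58, adjusted p 0.0273 by edgeR) without that library. AL139246.5, a noncoding gene on the opposite strand that overlaps the start of HES5, had 28, 8 and 6 counts with glutamine and 86, 61 and 37 without, more than HES5 in each library. Its part in the HES5 counts was not tested. DLL1, a Notch ligand, and HES6, a relative of HES5 that promotes neurogenesis, had mean levels of 15.8 and 9.82 RPKM against 0.0817 RPKM for HES5 and are given below.

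NEUROG2, the proneural factor, had the largest fold change of the 9 genes. It is a gene of 2 exons at chr4:112513516-112516172 on the minus strand, and it had 13, 35 and 72 counts with glutamine and 10, 3 and 0 without. In CPM these are 0.160, 0.448 and 0.916 with glutamine and 0.116, 0.0383 and 0 without, where the floor of 3 counts set for a count of 0 is 0.0382 CPM. Replicate 1 with glutamine was the lowest of its group and replicate 1 without the highest of the other. The exact 95% Poisson intervals of these counts, 6.92 to 22.2 for 13 and 4.80 to 18.4 for 10, overlap, so the order of these libraries is not resolved by counting alone. The other nonzero counts are further apart, with intervals of 24.4 to 48.7 for 35 and 56.3 to 90.7 for 72 against 0.619 to 8.77 for 3. These intervals cover counting error only. The log2 fold change was -3.21 (SE 0.92), with an adjusted p of 0.0877 from edgeR and 0.00378 from DESeq2. Without replicate 1 with glutamine it was -3.63 (SE 0.60, adjusted p 0.0011 by edgeR). NEUROG2 passed the filter on low counts through its libraries with glutamine alone. AC023886.1, an antisense gene over the NEUROG2 locus, had 0 to 4 counts.

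DCX, the microtubule-binding protein of migrating neurons, had the highest RPKM of the 9 genes in each library and made up most of their summed 23.6 to 80.0 CPM. The gene lies at chrX:111293779-111412429 on the minus strand. Its level was 63.4, 18.4 and 19.2 CPM with glutamine and 51.0, 49.1 and 75.8 CPM without. Replicate 1 with glutamine was above 2 of the 3 libraries without, and replicates 2 and 3 were below all of them. The group values were 33.7 ± 25.8 and 58.6 ± 14.9 CPM (SD, n = 3). The log2 fold change was 0.80 (SE 0.48), at an adjusted p from edgeR of 0.297. Without replicate 1 with glutamine the mean with glutamine was 18.8 CPM and the log2 fold change 1.64 (SE 0.18, adjusted p 7.5e-05 by edgeR). The value thus moved by more than 1.5 times with 1 library.

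ELAVL3, at chr19:11451326-11481046 on the minus strand, showed no separation. It had 38, 20 and 58 counts with glutamine and 21, 57 and 32 without. The highest library was replicate 3 with glutamine at 0.738 CPM, the lowest was replicate 1 without at 0.244 CPM, and the groups overlapped. Its log2 fold change was -0.10 (SE 0.49, with an edgeR adjusted p of 0.904), and -0.13 without replicate 1 with glutamine. Its sign changed when replicate 3 with glutamine or replicate 1 without was left out.

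**Figure D3:**
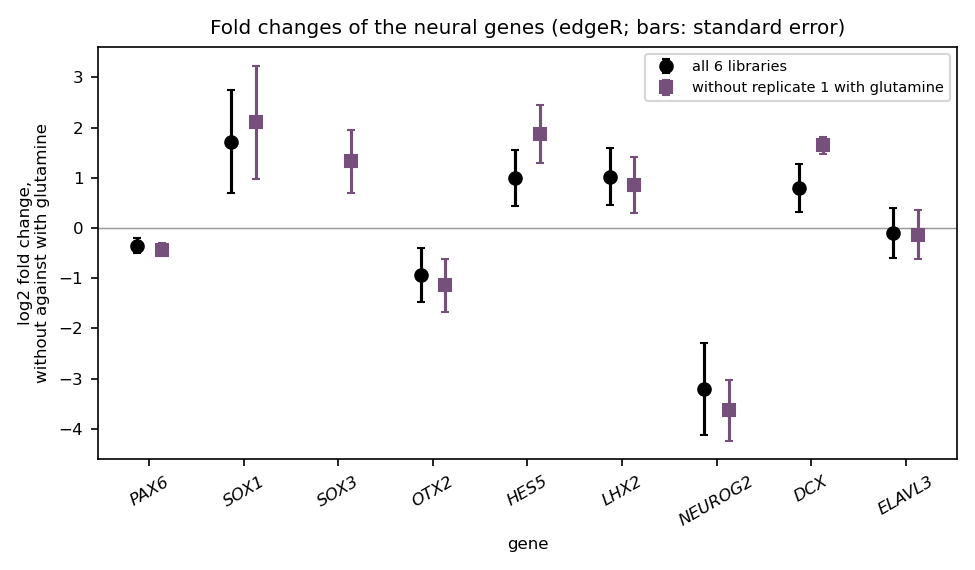
Log2 fold change without against with glutamine for each of the 9 genes with its standard error, from edgeR with all 6 libraries (circles) and without replicate 1 with glutamine (squares); SOX3 was tested in the second fit only. DCX moves from 0.80 to 1.64 between the fits, and NEUROG2 is the lowest in both, at -3.21 and -3.63.

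Over the 8 genes tested the median log2 fold change was 0.35, with 4 positive and 4 negative, beside a median of 0.001 over all genes tested.

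Relatives of the 9 genes, chosen after their values were seen, did not share one direction. DCLK2, a kinase related to DCX, was at 9.77, 8.59 and 8.20 CPM with glutamine and 15.0, 17.3 and 14.1 CPM without, so replicate 1 stayed with its own group there. Its log2 fold change was 0.80 (SE 0.12, with an edgeR adjusted p of 0.068). DESeq2 called it at an adjusted p of 2.33e-06. DCLK2 was at 0.88 without replicate 1 with glutamine (adjusted p 0.000186 by edgeR). DCLK1, the other kinase of the family, had a log2 fold change of -0.49 (SE 0.21, with an edgeR adjusted p of 0.169), and -0.69 without that library (adjusted p 0.0015 by edgeR).

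The relatives of ELAVL3 had higher levels per length, at means of 2.20 RPKM for ELAVL2 and 0.308 RPKM for ELAVL4 against 0.0995 RPKM for ELAVL3. ELAVL2 was at 7.89, 16.4 and 16.5 CPM with glutamine and 8.51, 8.55 and 9.94 CPM without. ELAVL4 was at 0.850, 4.80 and 4.49 CPM with glutamine and 0.791, 1.09 and 0.866 CPM without. Replicates 2 and 3 with glutamine were the high libraries in both, and replicate 1 lay with or near the libraries without. Their log2 fold changes were -0.60 (adjusted p 0.191 by edgeR) and -1.89 (adjusted p 0.103 by edgeR), and both were called without that library, at -0.87 (adjusted p 9.66e-05 by edgeR) and -2.35 (adjusted p 4.05e-06 by edgeR).

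SOX2, the SOXB1 factor shared by pluripotent, neural and caudal progenitor cells, was at 11.63, 22.62 and 20.04 CPM with glutamine and 17.14, 13.68 and 11.85 CPM without. The groups overlapped, at a log2 fold change of -0.35 (SE 0.25, with an edgeR adjusted p of 0.381). Once replicate 1 with glutamine was left out they did not, and edgeR called SOX2 at -0.58 (adjusted p 0.00829). NEUROG1, which acts beside NEUROG2, had 4, 12 and 9 counts with glutamine and 3, 0 and 0 without and did not pass the filter, while NEUROG3 and OTX1 had at most 4 counts in a library. PAX3 and PAX7, paired-box factors of dorsal neural tube and somite, were highest in replicates 2 and 3 with glutamine. PAX3 was at 20.8, 115 and 118 CPM with glutamine and 22.4, 12.4 and 13.4 CPM without, a log2 fold change of -2.40 (SE 0.62, with an edgeR adjusted p of 0.0786). PAX7 had 0.887, 10.2 and 10.0 CPM with glutamine and 0.732, 0.970 and 0.547 CPM without (log2 fold change -3.23, adjusted p 0.0806 by edgeR). DESeq2 called PAX3 and PAX7, at adjusted p of 0.0163 and 0.00904, and so did edgeR without replicate 1 with glutamine, at -2.85 and -3.75 (adjusted p 5.24e-06 and 3.19e-07).

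A wider set of 102 neural genes on 3 lists also held no edgeR call with all 6 libraries. Of the 79 that passed the filter edgeR called 0, with 18 higher and 16 lower at an unadjusted p under 0.05, where 14.7% and 15% of all genes were. The groups did not overlap for 20 higher and 7 lower, beside 17.3% and 16.9% of all genes. DESeq2 called 14 higher and 10 lower, beside 7.54% and 6.44%. Without replicate 1 with glutamine edgeR called 29 higher and 26 lower of 80, beside 22.3% and 19%. The median log2 fold change was 0.21 for neural progenitor factors, -0.39 for proneural and neurogenic factors and 0.14 for neuronal markers. Of the 102 genes, 43 had a mean under 1 CPM.

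Among the 32 neural progenitor factors that passed the filter, 11 were higher and 1 lower with the groups apart, beside 17.3% and 16.9% of all genes. On the whole list of 46, 24 had a mean under 1 CPM. POU3F1, a POU factor of early neural ectoderm, had 22, 1 and 4 counts with glutamine and 49, 75 and 93 without (log2 fold change 2.97, SE 0.63, adjusted p 0.0703 by edgeR). IRX5, an Iroquois homeodomain factor, had 30, 11 and 8 counts with glutamine and 94, 72 and 62 without (log2 fold change 2.18, SE 0.40, adjusted p 0.068 by edgeR). EMX2, a homeodomain factor of dorsal forebrain that the embryonic urogenital system also expresses, was at 65.2, 3.76 and 3.79 CPM with glutamine and 122, 111 and 84.9 CPM without. Its log2 fold change of 2.13 (SE 1.05, with an edgeR adjusted p of 0.216) became 4.82 (adjusted p 1.03e-07 by edgeR) without replicate 1 with glutamine. The highest levels per length were those of NES, an intermediate filament of progenitor cells, at 86.2 RPKM, and SOX4, a SOX factor of many progenitors, at 78.8 RPKM. NES and SOX4 had log2 fold changes of 0.19 and -0.40, with adjusted p from edgeR of 0.27 and 0.182. Leaving out that library, edgeR also called POU3F1 at 4.75 (adjusted p 0.000247), IRX5 at 2.94 (adjusted p 0.000116) and SOX4 at -0.59 (adjusted p 0.000181), but not NES. DESeq2 with all libraries called POU3F1 and IRX5, at adjusted p of 0.000533 and 0.000152. POU3F1, with 1 and 4 counts in replicates 2 and 3 with glutamine, passed the filter on low counts through its libraries without glutamine.

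Of the 15 proneural and neurogenic factors that passed the filter, from a list of 22, 2 were higher and 4 lower without overlap. The shares over all genes tested were 17.3% and 16.9%. DLL1 was at 54.7, 22.5 and 21.1 CPM with glutamine and 78.1, 74.6 and 55.2 CPM without. Its log2 fold change was 1.08 (SE 0.37, with an edgeR adjusted p of 0.116), with the groups separate by the margin between replicate 1 with glutamine and replicate 3 without. HES6 was at 17.5, 11.5 and 12.9 CPM with glutamine and 32.2, 25.2 and 20.8 CPM without (log2 fold change 0.90, SE 0.21, adjusted p 0.0721 by edgeR). EBF3, a factor of neuronal differentiation and of mesoderm, was at 25.81, 99.99 and 91.05 CPM with glutamine and 19.98, 17.25 and 14.96 CPM without (log2 fold change -2.05, SE 0.46, adjusted p 0.0706 by edgeR). EBF2, a related factor, had the highest level of this list at 17.1 RPKM and a log2 fold change of -0.52 (SE 0.23, with an edgeR adjusted p of 0.185). With replicate 1 with glutamine left out, edgeR called all 4, with DLL1 at 1.67 (adjusted p 1.62e-05), HES6 at 1.10 (adjusted p 0.000617), EBF3 at -2.45 (adjusted p 3.5e-07) and EBF2 at -0.68 (adjusted p 0.0143). DESeq2 with all libraries called HES6 and EBF3, at adjusted p of 0.00068 and 0.00645.

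Of the 32 neuronal markers that passed the filter, from a list of 34, 7 were higher and 2 lower without overlap. Over all genes tested these shares were 17.3% and 16.9%. None of the markers was called by edgeR with all 6 libraries. TUBB3, the neuronal beta-tubulin, was at 1.49, 1.02 and 0.904 CPM with glutamine and 2.03, 2.49 and 2.37 CPM without (log2 fold change 1.01, SE 0.22, adjusted p 0.0706 by edgeR). STMN1, a tubulin-binding protein that dividing cells also make, had the highest level at 139.9 RPKM and a log2 fold change of 0.40 (SE 0.09, with an edgeR adjusted p of 0.0706). POU4F1, a POU factor of sensory neurons, was at 1.08, 12.3 and 16.4 CPM with glutamine and 0.291, 0.217 and 0.166 CPM without. Its log2 fold change was -5.45 (SE 1.09, with an edgeR adjusted p of 0.0689). DESeq2 called TUBB3, STMN1 and POU4F1, at adjusted p of 0.0013, 0.00875 and 9.25e-06. The edgeR fit without replicate 1 with glutamine called them too, at 1.25, 0.44 and -5.98, with adjusted p of 0.00048, 0.00267 and 1.03e-07.

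Proteins of neuronal filaments did not share one pattern. NEFM, a neurofilament subunit, was at 67.1, 367 and 390 CPM with glutamine and 72.0, 91.8 and 89.0 CPM without. NEFL, another subunit, named after its values were seen, was at 50.6, 266 and 279 CPM with glutamine and 61.2, 61.0 and 54.5 CPM without. For either subunit replicate 1 with glutamine was the lowest of the 6 libraries, and both were low where DCX was high. INA, a further filament protein of neurons that was likewise named after its values were seen, was higher in each library without glutamine than in any with it, at 8.92, 5.29 and 5.93 CPM with glutamine and 9.92, 13.8 and 14.9 CPM without. Its log2 fold change was 0.94 (SE 0.24), at an adjusted p from edgeR of 0.0766, and edgeR called it without replicate 1 with glutamine, at an adjusted p of 0.000434. CRMP1, a cytoskeletal protein of growing axons also named after its values were seen, followed DCX, at 147, 48.1 and 48.2 CPM with glutamine and 135, 141 and 147 CPM without. With all libraries the log2 fold changes were -1.70 for NEFM, -1.75 for NEFL and 0.80 for CRMP1, at adjusted p from edgeR of 0.112, 0.102 and 0.244. Without that library NEFM, NEFL and CRMP1 were called, at -2.16, -2.21 and 1.55, with adjusted p from edgeR of 3.97e-07, 8.70e-08 and 3.97e-07.

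**Figure D4:**
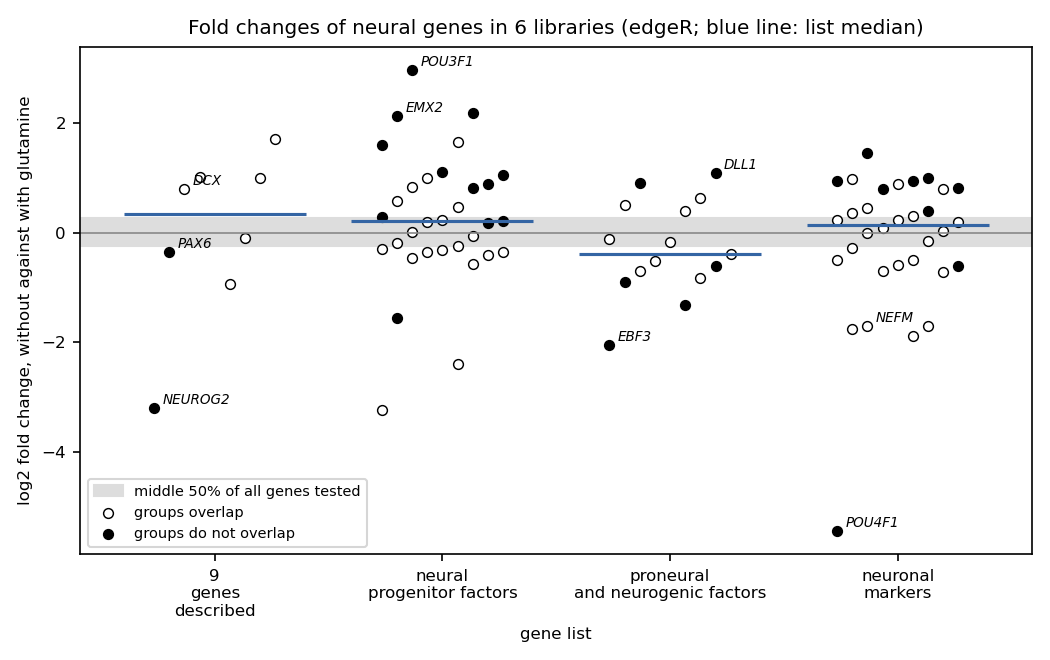
Log2 fold change without against with glutamine in 6 libraries for the genes of the 9 described and of 3 neural lists that passed the filter; filled points have no overlap between groups, blue lines are list medians and the grey band holds the middle 50% of all genes tested. NEUROG2 at -3.21 and POU4F1 at -5.45 are the lowest of their lists.

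**Figure D5:**
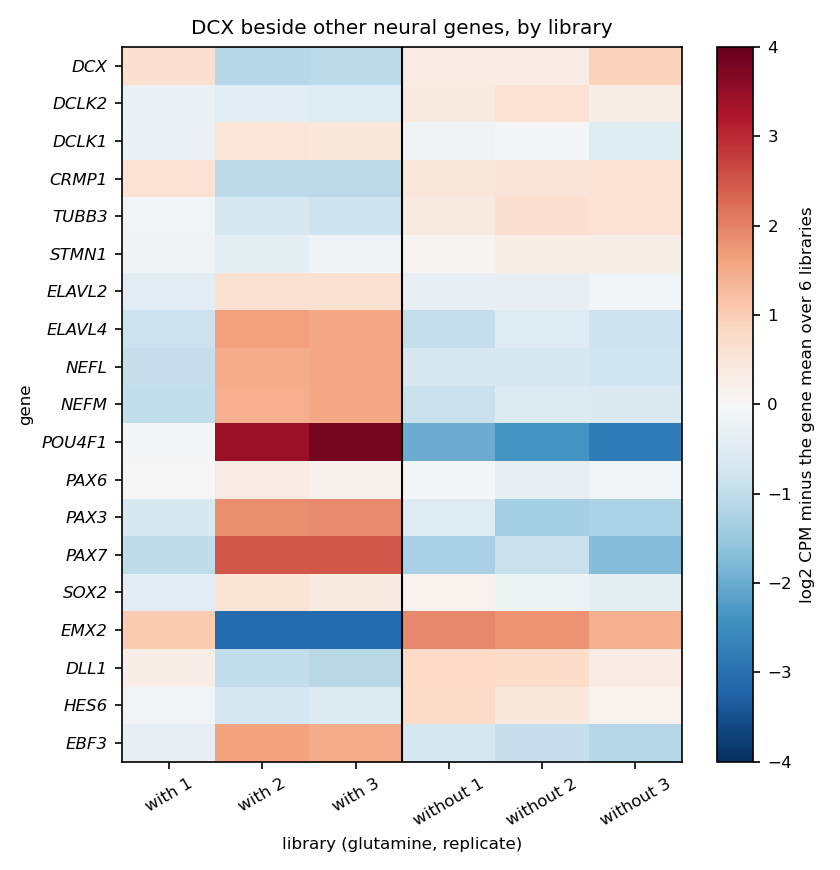
Log2 CPM minus the gene's mean over the 6 libraries for DCX, PAX6 and 17 other neural genes, in columns by library. Replicate 1 with glutamine has the colour of the libraries without glutamine for DCX, CRMP1, NEFL and NEFM, but not for DCLK2, where it stays with its own group.

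Markers of other cell types were read in the same libraries. The 12 neural crest markers had a median log2 fold change of -0.80 over the 11 tested, 10 of them negative and 5 lower without overlap. Over all 22613 genes tested 11270 were negative, and 16.9% were lower without overlap. Their summed level was 485 to 539 CPM with glutamine and 340 to 412 CPM without. SOX10, a defining crest factor, had 0 counts in all 6 libraries. EDNRB, an endothelin receptor of crest cells, had a log2 fold change of -1.53, at an adjusted p from edgeR of 0.068. DESeq2 called EDNRB at an adjusted p of 3.98e-07, and edgeR without replicate 1 with glutamine at -1.68 (adjusted p 9.77e-05). TFAP2A, the crest marker with a positive value, had 0.92 (adjusted p 0.44 by edgeR) and 2.74 without that library (adjusted p 8.36e-05 by edgeR). With that library left out, edgeR called 1 crest marker higher and 8 lower, beside 22.3% and 19% of all genes. SNAI2 and ETS1, which mesoderm also expresses, had the highest levels of the list at 42.8 and 20.9 RPKM. The summed level of the 14 nephron progenitor markers was 1666, 1054 and 984 CPM with glutamine and 2072, 1754 and 1549 CPM without, so that replicate 1 lay among the other group there as it did for DCX. The part of these cell types in the neural genes was not tested.

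The 11 repressors of neuronal genes on a list of their own were abundant in all libraries, at a median of 24.2 RPKM. REST, the DNA-binding repressor that silences neuronal genes outside neurons, was at 174, 197 and 185 CPM with glutamine and 173, 169 and 183 CPM without. The groups overlapped, and its log2 fold change was -0.08 (SE 0.07, with an edgeR adjusted p of 0.473). KDM1A and RCOR1, its demethylase and corepressor partners, were lower without overlap, as were 16.9% of all genes. Their values were -0.24 and -0.23 (adjusted p 0.123 and 0.108 by edgeR). Without replicate 1 with glutamine both were called, at -0.31 and -0.27 (adjusted p 0.0038 and 0.0103 by edgeR). RCOR2, named after its values were seen, overlapped between groups, at -0.86 (adjusted p 0.0885 by edgeR). Leaving out that library gave -1.10 for RCOR2 (adjusted p 6.61e-05 by edgeR). That fit called 3 of the 11 lower and 1 higher, beside 19% and 22.3% of all genes.

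The genes whose log2 CPM over the 6 libraries was most like that of DCX were WNK4, SPTAN1 and NRK, with Pearson's r of 0.999, 0.9987 and 0.9986. For PAX6 they were RICTOR, PCDHB13 and AC103702.1, with r of 0.9987, 0.9976 and 0.9965. Among 16880 genes with a mean of at least 50 counts, 694 had r over 0.95 with DCX and 474 with PAX6, so the closest few are not particular. The points share the split between libraries described above, and these values carry no test. For the other 6 genes tested, with means of 8.7 to 37.7 counts, the closest gene had an r of 0.9829 to 0.9977, and at counts this sparse these are no finding and are not named.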

How the data were processed

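The authors deposited raw counts per Ensembl gene, 1 column per library. Per the submitters' processing notes, reads were handled with cutadapt, Trim Galore, FastQC, STAR 2.5.2b and DESeq2 on GRCh38. The counting program, annotation release and strand setting are not given in the sources used here. The table's headings speak of days 0 and 9 although every sample is labelled day 9. Columns were matched through the heading quoted in each sample's description, and directions depend on that match. The deposited normalized table was not used.

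The test was the quasi-likelihood F test of edgeR 4.0.16 under R 4.3.3, with legacy = FALSE, TMM scaling, filterByExpr, on 22613 genes holding 99.95% of counts, with Benjamini-Hochberg adjustment and a threshold of 0.05. The standard error is the absolute log2 fold change over the square root of F. CPM uses TMM library sizes, and RPKM the union of GENCODE 29 exons. The scripts were tested on simulated data.

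The genes and lists were chosen with earlier results of these data known. Each of the 9 genes is named. From each list the rule names up to 3 genes of largest change without overlap and whose mean count reached 50 in whichever group was higher, and the 2 highest by level, apart from some that are not reported here; the lists of surface ectoderm, caudal and pluripotency markers, and the neighbouring genes, are summarised in the closing section. Same-numbered replicates did not deviate together (correlations -0.02, 0.002 and 0.027). Alternatives were edgeR with other scalings, filters and settings, DESeq2 1.42.0, limma-voom (limma 3.58.1), a replicate block and leaving out each library.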

Additional observations from a re-analysis of the deposited data

How the results depend on the processing

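The count of called genes, 1 with all libraries, was 0 under upper quartile scaling, library size only, limma-voom, edgeR's legacy setting and the replicate block, 2 with no filter and 3041 with DESeq2. Leaving out 1 library gave 0 to 9573, the highest without replicate 1 with glutamine, and 17 without replicate 1 of the other group. Of the 9 genes described, edgeR called 0 with all libraries and with the replicate block. DESeq2 called 1, NEUROG2, and leaving out 1 library gave 0 to 4 by edgeR. Of the wider neural lists DESeq2 called 24 and leaving out 1 library gave 0 to 55. The highest counts with 1 library left out all came without replicate 1 with glutamine, and the cause was not tested. The sign reversed for SOX1 (-0.045 without replicate 2 of the group without glutamine, up to 2.25), for ELAVL3 (0.319 without replicate 3 with glutamine and 0.221 without replicate 1 of the other group, down to -0.588), for PTBP1 (-0.01 and -0.072 without either replicate 1, up to 0.127), for PANK4 (-0.024 under upper quartile scaling, -0.005 and -0.054 with 1 library left out, up to 0.085) and for DENND1A (-0.012 to 0.13). With 1 library left out, DCX ran from 0.499 to 1.644, NEUROG2 from -4.611 to -2.467, PAX6 from -0.432 to -0.28, HES5 from 0.602 to 1.872, LHX2 from 0.574 to 1.976 and OTX2 from -1.302 to -0.284 on the log2 scale. Of 127 values for the 8 genes tested, 119 stayed as they were in sign and call, 5 passed the threshold and 3 reversed. Of the 8 genes, 6 had means of 8.7 to 37.7 counts, and HES5 and NEUROG2 among them were called without replicate 1 with glutamine.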

Other observations

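Lists drawn up beside the neural genes gave further values. The caudal epiblast and neuromesodermal markers, genes of the progenitors that give rise to both spinal cord and somites, had a median log2 fold change of -0.85 over 10 genes, 8 of them negative, beside 11270 of all 22613 genes tested. SP8 was at 1.36, 6.03 and 6.06 CPM with glutamine and 0.849, 0.970 and 0.624 CPM without (log2 fold change -2.45, edgeR adjusted p 0.0722), CDX1 had -2.06 (edgeR adjusted p 0.114) and WNT3A 0.55 (edgeR adjusted p 0.212). NKX1-2, a marker of caudal epiblast, had 0 counts in all libraries. Among nephron progenitor markers, HOXC11, HOXD11 and HOXA11 had log2 fold changes of 4.94, 4.67 and 3.20 (edgeR adjusted p 0.068, 0.068 and 0.0722). The HOX genes named here passed the filter on low counts through their libraries without glutamine. WT1 and PAX8 had the highest levels, 77.3 and 70.4 RPKM. Without replicate 1 with glutamine edgeR called the HOX genes, with HOXD11 at 9.26 (adjusted p 2.27e-06), HOXA11 at 6.13 (adjusted p 4.4e-06) and HOXC11 at an adjusted p of 6.77e-05. HOXC11 then had 0 counts in both libraries left with glutamine, so its fitted fold change of 10.71 is no bound. In those libraries HOXD11 had 0 and 1 counts and HOXA11 3 and 6, so the sizes of their fold changes also rest on very few counts. That fit also called SP8 at -2.89 (adjusted p 1.31e-06) and CDX1 at -2.56 (adjusted p 5.55e-07), but not WNT3A.

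Of the surface ectoderm and placode markers, 10 of 12 had a mean under 1 CPM. FOXI3 had 45, 9 and 7 counts with glutamine and 118, 73 and 68 without, and passed the filter on low counts through its libraries without glutamine. GATA3, which the nephric duct also expresses, had 6.10, 3.14 and 2.56 CPM with glutamine and 8.41, 7.86 and 7.70 CPM without. TFAP2C had a log2 fold change of -1.31 (edgeR adjusted p 0.101). Of the 8 pluripotency markers, 4 had a mean under 1 CPM, among them POU5F1 with 3 to 13 counts in a library and NANOG with 0 to 1. LIN28A was lower without overlap (-0.95, edgeR adjusted p 0.0829), and DPPA4 (0.80, edgeR adjusted p 0.0724) and ZFP42 (0.38, edgeR adjusted p 0.168) were higher. Without replicate 1 with glutamine edgeR called FOXI3 at 3.36, GATA3 at 1.49, TFAP2C at -1.54, LIN28A at -1.21 and DPPA4 at 1.04, but not ZFP42. PTBP1, a splicing factor that holds back neuronal exons, had a log2 fold change of 0.06 (edgeR adjusted p 0.768). The neighbouring genes PANK4 and DENND1A had values of 0.02 and 0.08 (edgeR adjusted p 0.898 and 0.602). SOX2-OT, the noncoding transcript over SOX2, had 83 to 133 counts in a library, SOX1-OT 0 to 4, OTX2-AS1 4 to 13 and ZNF653 324 to 416.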
